A study of Homo sapiens with 8 samples.

Results

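The cadherin, desmosome and tight junction genes of SAS cells were described across 4 groups of whole-transcriptome arrays. Members were the array features, control spots left out, whose gene name is CLDN, CDH, DSG, DSC, PKP or TJP followed by digits, or DSP, JUP or OCLN. This gave 63 of 43317 gene names, carried by 86 of 58201 features. SAS is a human cell line established from a squamous carcinoma of the tongue, and the methods name the transfected cells SAS/GFP, a control line with a GFP vector, while the labels name them SAS grown with puromycin. Cells received 25 nM of a mimic, of miR-874-3p, miR-629-3p or miR-210-3p, or a negative control RNA (NC), with 2 arrays in each group and nothing else that differs in the labels. The labels give 48 h from transfection to extraction, and the methods give a shorter time. Nothing states that the 2 arrays of a group came from separate cultures, so the p-values measure the spread between these arrays only, which may be technical.

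Epithelial cells are held together by 3 kinds of junction. Adherens junctions use classical cadherins, which bind the same cadherin on the next cell and are anchored to actin through catenins. Desmosomes use desmogleins and desmocollins, which are tied to keratin filaments through plakoglobin (JUP), plakophilins (PKP) and desmoplakin (DSP), and they are abundant in squamous epithelium. Tight junctions seal the space between cells with claudins and occludin (OCLN), which the TJP scaffolds, also called ZO proteins, link to the cytoskeleton. Loss of E-cadherin (CDH1) with gain of N-cadherin (CDH2) is the textbook marker pair of epithelial-mesenchymal transition.

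A miRNA pairs with target RNAs mainly through its seed, bases 2 to 8 from the 5′ end. The mature sequences of the 3 mimicked miRNAs are shown because the groups are defined by them. They are from RefSeq (GRCh38.p14), written 5′ to 3′, with the seed in capitals.
miR-629-3p: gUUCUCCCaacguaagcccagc
miR-210-3p: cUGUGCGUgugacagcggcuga
miR-874-3p: cUGCCCUGgcccgagggaccga
No seed is shared among them. The match to the miR-629-3p seed lay in 2 of the 86 member features and in 0.747% of all 58201, and no member feature held the match to miR-210-3p (0.131% of all) or miR-874-3p (0.387%). The members with a match were CLDN19 and CDH19, printed here with the match in capitals in the strand of the mRNA. They were singled out for the match and not by their values.
CLDN19: aggtctgcagaGGGAGAAaagaacccaca
CDH19: acagagatgtgGGGAGAAatgtaaacaat
The probes that hold them lie at chr1:43199059-43199118 and chr18:64171826-64171885 in the hg19 annotation of the array. That CLDN19 feature was well above background on 1 of 8 arrays and the CDH19 feature on none, so neither was tested. A probe covers a short stretch of its transcript, and the rest was not searched.

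Of the 63 members, 37 gave a value that could be tested, which required both arrays of 1 or more groups to be well above background. These were 11 of 23 cadherins, 13 of 23 claudins, 4 of 7 desmosomal cadherins, all 6 desmosomal plaque genes and OCLN, with TJP scaffolds making up the rest. The other 26 had only a bound. Among them, DSG1, the desmoglein of superficial epidermis, was well above background on no array, and TJP3 on 1 array. In all, 21 of the 26 were above background on no array, among them DSC1, DSG4, CLDN5, CLDN8 and CLDN18. Of the 37 tested members, 34 were well above background on all 8 arrays, and the others were CDH23, CLDN15 and CLDN24.

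Levels are given as log2 signal relative to the array's 75th percentile, and differences between groups as log2 fold changes from limma with their standard error (SE). A gene was called at a Benjamini-Hochberg adjusted p under 0.05 over all 21283 genes tested. The squamous label went with KRT5, KRT14 and TP63, which like all 10 genes of the squamous epithelial list were well above background on all 8 arrays. KRT8, KRT18 and EPCAM on that list are not particular to squamous cells. Of the other lists, COL1A2, COL3A1, DCN and LUM for fibroblasts, TEK and CLDN5 for endothelium and SYP and OLIG2 for neural cells were above background on none. Markers on these lists that were well above background on all 8 arrays were PDGFRB for fibroblasts, VWF and CDH5 for endothelium, PTPRC and CD14 for leukocytes, and MAP2, TUBB3 and RBFOX3 for neural cells. COL1A1 was so on 6 arrays and CD3E on 4, and PECAM1, KDR, ITGAM, GFAP and THY1 on 2 or fewer. Because RNA came from whole cultures, fewer cells of a type and less RNA per cell cannot be told apart. All arrays lay on 1 slide and shared 1 scan, with miR-629-3p beside miR-210-3p in one slide row and NC beside miR-874-3p in the other. Slide row and the comparisons of miR-629-3p or miR-210-3p with NC therefore cannot be told apart. Features well above background numbered 27080 to 28994 on the arrays of the first row and 24338 to 26963 on those of the second.

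With miR-629-3p, 9 of 37 members were higher than with NC and 5 were lower, while 23 were not called. Over all genes tested, 9.28% were called higher and 7.47% lower. By role, 2 cadherins, 4 claudins, 1 desmosomal cadherin, 1 plaque gene and OCLN were higher, and 3 cadherins, 1 claudin and 1 plaque gene were lower. Both miR-629-3p arrays lay outside the range of the NC arrays for 30 of 37 members, against 65.5% of all genes. The median log2 fold change was 0.06 over the members and 0.02 over all genes.

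**Figure D1:**
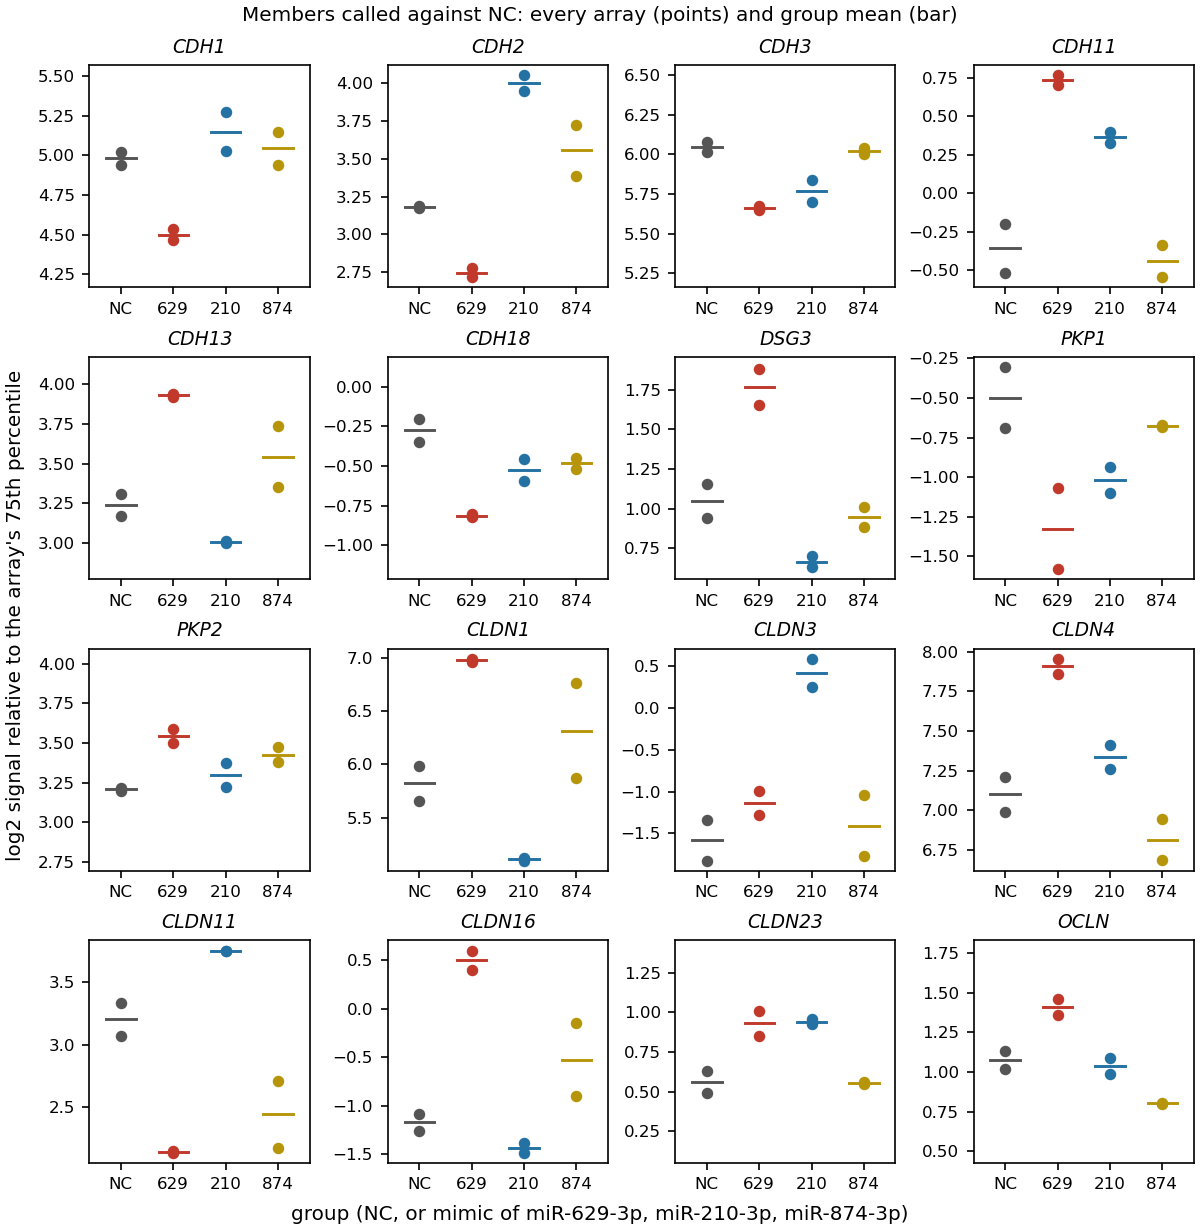
Log2 signal (relative to the array's 75th percentile) of the 16 members called against NC with any mimic, by group; points are arrays and bars are group means, and each panel has its own axis. Among the members called with miR-629-3p, its arrays sit above both NC arrays in 9 panels, such as CLDN16 and DSG3. They sit below both in 5, such as CDH1 and CLDN11. In the panels called with miR-210-3p only, the miR-629-3p arrays also lie outside NC, above it for CLDN3 and below it for CDH2.

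Among the cadherins, E-cadherin (CDH1) fell with miR-629-3p. CDH1 read 5.02 and 4.94 with NC, 4.47 and 4.53 after miR-629-3p, 5.27 and 5.03 after miR-210-3p and 4.94 and 5.15 after miR-874-3p. Both miR-629-3p arrays lay below the other 6, which ran from 4.94 to 5.27. The change against NC was -0.48 (SE 0.12), or 1.4-fold lower, with an adjusted p of 0.0453 by limma. The call was lost in 7 of the 14 alternatives that dropped no single array, among them quantile normalization, the deposited log2 table and the replicate block. The change ran from -0.52 to -0.42 over all 22. The array carries 10 spots of this probe, whose SD within an array, a technical spread only, was 0.045 to 0.099.

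P-cadherin (CDH3), the classical cadherin of basal epithelial cells, lies beside CDH1 on chromosome 16 and moved the same way. Its levels were 5.68 and 5.65 with miR-629-3p and 6.01 and 6.08 with NC, a change of -0.38 (SE 0.078, adjusted p = 0.0287 by limma). With miR-210-3p it read 5.84 and 5.70, below both NC arrays, and that difference of -0.28 was not called (adjusted p = 0.0965). The miR-874-3p arrays, at 6.0 and 6.04, overlapped those of NC. The probes lie at chr16:68869214-68869273 (CDH1) and chr16:68732812-68732871 (CDH3) in hg19.

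N-cadherin (CDH2), the classical cadherin of mesenchymal and neural cells, separated the mimics. It read 3.18 and 3.19 with NC, 2.71 and 2.78 after miR-629-3p, 4.05 and 3.95 after miR-210-3p and 3.73 and 3.39 after miR-874-3p. On this feature, the brightest of the gene, no 2 groups overlapped. The rise with miR-210-3p was 0.82 (SE 0.12), or 1.76-fold (adjusted p = 0.0262 by limma), and a second CDH2 feature gave 0.86 (adjusted p = 0.0362). With miR-629-3p the difference was -0.44 and was not called (adjusted p = 0.065). The second feature gave -0.03, with miR-629-3p (0.84 and 0.86) within the range of NC (0.82 and 0.93). By their brightest features only, CDH1 and CDH2 were thus both below NC on the miR-629-3p arrays. On that CDH2 feature the direct difference between miR-629-3p and miR-210-3p was -1.26 (SE 0.12, adjusted p = 0.00461 by limma).

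CDH11, a cadherin known from osteoblasts and fibroblasts, was the member called against NC with 2 mimics. Its levels were -0.20 and -0.52 with NC, 0.70 and 0.76 after miR-629-3p, 0.40 and 0.33 after miR-210-3p and -0.55 and -0.34 after miR-874-3p. All NC and miR-874-3p arrays lay below those of the other 2 mimics. That is also the split by slide row, so mimic and row cannot be told apart for CDH11. The rise was 1.09 (SE 0.13, adjusted p = 0.00872 by limma) with miR-629-3p and 0.72 (SE 0.13, adjusted p = 0.0407) with miR-210-3p, against the same NC arrays. PDGFRB, the fibroblast marker on the list that was detected on all arrays, was also called higher with both mimics of that slide row. Its part in the CDH11 result was not tested.

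T-cadherin (CDH13), which is attached to the membrane by a lipid anchor and has no cytoplasmic tail, read 3.94 and 3.92 with miR-629-3p and 3.31 and 3.17 with NC. The change was 0.69 (SE 0.14, adjusted p = 0.0264 by limma). The other CDH13 feature that was bright on all arrays gave 0.13 and was not called. The remaining feature was well above background on the miR-629-3p arrays and on no other, so no fold is given for it. The 3 features thus differ in size for this gene. CDH18, a cadherin of the nervous system, read -0.82 and -0.80 with miR-629-3p and -0.35 and -0.20 with NC, a change of -0.54 (SE 0.088, adjusted p = 0.017 by limma).

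In the desmosome, 1 adhesive cadherin (DSG3) and 2 plaque genes (PKP1 and PKP2) were called with miR-629-3p. DSG3, the desmoglein of basal squamous cells and the antigen of pemphigus vulgaris, read 0.94 and 1.16 with NC, 1.88 and 1.65 after miR-629-3p, 0.70 and 0.63 after miR-210-3p and 0.88 and 1.01 after miR-874-3p. The miR-629-3p arrays were the highest. The rise against NC was 0.72 (SE 0.12), or 1.64-fold (adjusted p = 0.0177 by limma). The gene's neighbour DSG2, the widely expressed desmoglein, read 1.00 and 0.97 with miR-629-3p and 1.08 and 1.1 with NC, and was not called with any mimic.

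Plakophilin 1 (PKP1), the plakophilin of stratified epithelium, was lower with miR-629-3p, at -1.07 and -1.58 against -0.69 and -0.30 with NC. The change was -0.83 (SE 0.21, adjusted p = 0.0478 by limma), and a second feature gave -0.71 without a call. The PKP1 call was lost in 9 of the 14 alternatives that dropped no single array, the most of any called member. Plakophilin 2 (PKP2), which is also found in simple epithelium and heart, was higher, at 3.59 and 3.50 against 3.22 and 3.20, a change of 0.34 (SE 0.085, adjusted p = 0.0495 by limma). So 2 plakophilins changed in opposite directions, while PKP3 read 6.59 and 6.87 with miR-629-3p and 6.77 and 6.60 with NC, which overlap. DSP (-0.08) and JUP (-0.19), which link the cadherins to keratin, were not called with miR-629-3p.

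The squamous epithelial markers had a median log2 fold change of -0.46 with miR-629-3p. Their summed signal, on the linear scale relative to the array's 75th percentile, was 1315 to 1319 with miR-629-3p and 1688 to 1794 with NC. This sum is weighted to KRT18, the brightest of the 10 genes, which is not particular to squamous cells. KRT14, KRT17, KRT8 and KRT18 were called lower, while 6 were not called, among them KRT5 (-0.03) and EPCAM (-0.04). The endothelial markers summed to 2.51 to 2.73 and 1.5 to 1.57, with VWF called higher. Each sum covers only the tested genes of its list, here PECAM1, VWF and the member CDH5. The member CLDN5 is on the list but not in the sum, and PECAM1 was well above background on the miR-629-3p arrays alone. The other sums cover 4 neural, 2 fibroblast and 2 leukocyte markers. The neural markers summed to 34.5 to 35.1 and 56.9 to 66.4, with TUBB3 (-0.88) called lower and MAP2 called higher (1.26). GFAP was well above background on the miR-874-3p arrays alone. Its call as lower with miR-629-3p compares background with background, so no fold is given. The fibroblast markers summed to 0.550 to 0.562 and 0.42 to 0.424, and the leukocyte markers, none of them called, to 2.57 to 2.74 and 3.05 to 3.25. Their part in the junction results was not tested.

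Among members called against NC, a claudin changed most under both miR-629-3p and miR-210-3p. CLDN16, a claudin known from magnesium and calcium handling in the kidney, rose 3.18-fold with miR-629-3p. Its levels were -1.08 and -1.26 with NC, 0.60 and 0.40 after miR-629-3p, -1.48 and -1.38 after miR-210-3p and -0.91 and -0.14 after miR-874-3p. The miR-629-3p arrays stood above all others. The change was 1.67 (SE 0.25, adjusted p = 0.0143 by limma).

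CLDN1, a claudin of the epidermal barrier, is the protein-coding neighbour of CLDN16 on chromosome 3 and also rose. It read 5.99 and 5.66 with NC, 6.99 and 6.96 after miR-629-3p, 5.13 and 5.10 after miR-210-3p and 5.87 and 6.76 after miR-874-3p. The 2 miR-874-3p arrays differed from each other by more than those of any other group. The rise with miR-629-3p was 1.15 (SE 0.29), or 2.23-fold (adjusted p = 0.0487 by limma). With miR-210-3p both arrays lay below NC, by -0.71 on average, and this was not called (adjusted p = 0.195). The 2 probes lie 104.2 kb apart in hg19, at chr3:190024001-190024060 (CLDN1) and chr3:190128216-190128275 (CLDN16).

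CLDN4, a barrier claudin of many epithelia, read 7.21 and 6.99 with NC, 7.86 and 7.95 after miR-629-3p, 7.41 and 7.26 after miR-210-3p and 6.68 and 6.94 after miR-874-3p. The miR-629-3p arrays were the highest, and the rise against NC was 0.81 (SE 0.13), or 1.75-fold (adjusted p = 0.0164 by limma). CLDN23 read 1.01 and 0.85 with miR-629-3p and 0.63 and 0.49 with NC, a change of 0.37 (SE 0.088, adjusted p = 0.0429). OCLN, a 4-pass membrane protein of the tight junction strand, read 1.46 and 1.36 against 1.13 and 1.02, a change of 0.33 (SE 0.082, adjusted p = 0.0472). A second OCLN feature gave 0.20 without a call.

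CLDN11, the claudin of myelin and the testis barrier, ran the other way. It read 3.07 and 3.34 with NC, 2.15 and 2.14 after miR-629-3p, 3.75 on both miR-210-3p arrays and 2.71 and 2.18 after miR-874-3p. The miR-629-3p arrays were the lowest and the miR-210-3p arrays the highest. The fall with miR-629-3p was -1.06 (SE 0.19), or 2.09-fold (adjusted p = 0.0202 by limma). CLDN7 (-0.16) and TJP1 (0.03) were not called, and the 95% interval of the TJP1 difference ran from -0.15 to 0.22.

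These calls are sensitive to the number of arrays. Without either miR-629-3p array no member was called against NC, and with the replicate numbers as a block 6 were called. With normexp background correction, the log2 fold changes were 0.86 for CLDN16, 0.64 for CDH11, -0.27 for CDH18 and -0.33 for PKP1, all still called, and 0.21 for CLDN23 and 0.21 for OCLN, both no longer called. Of the 14 alternatives that dropped no single array, 8 lost the call of OCLN. That of CLDN23 was lost in 6, that of PKP2 in 6 and that of CLDN1 in 5.

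With miR-210-3p, 3 of 37 members were higher than with NC and none was lower, against 3.85% called higher and 2.2% called lower over all genes. By limma, 13 members had an unadjusted p under 0.05, against 26% of all genes. The 3 were CLDN3, CDH2 and CDH11, of which CDH2 and CDH11 are given above. The median log2 fold change was -0.04 over the members and 0.05 over all genes, and 23 of 37 members had groups that did not overlap, against 61.5% of all genes.

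CLDN3, a barrier claudin beside CLDN4 on chromosome 7, rose 4.0-fold with miR-210-3p. It read -1.34 and -1.83 with NC, 0.58 and 0.25 after miR-210-3p, -0.99 and -1.28 after miR-629-3p and -1.77 and -1.04 after miR-874-3p. The miR-210-3p arrays lay above all others, and the rise against NC was 2.0 (SE 0.30, adjusted p = 0.026 by limma). With normexp background correction it was 0.94 and still called. The probes of CLDN3 and CLDN4 lie 63.6 kb apart in hg19, at chr7:73183327-73183386 and chr7:73246907-73246966. CLDN4 was not called with miR-210-3p (0.24) and CLDN3 was not called with miR-629-3p (0.45).

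These neighbours, each called with a different mimic, are shown with the 250 bases before and 50 after their transcript start in RefSeq (GRCh38.p14), 5′ to 3′ on the gene's strand. Capitals mark the E-box CAGGTG, the core that SNAIL and ZEB repressors bind, and the AP-1 motif TGANTCA, searched on both strands. The motifs do not overlap here.
CLDN3, chr7:73770221-73770520, minus strand: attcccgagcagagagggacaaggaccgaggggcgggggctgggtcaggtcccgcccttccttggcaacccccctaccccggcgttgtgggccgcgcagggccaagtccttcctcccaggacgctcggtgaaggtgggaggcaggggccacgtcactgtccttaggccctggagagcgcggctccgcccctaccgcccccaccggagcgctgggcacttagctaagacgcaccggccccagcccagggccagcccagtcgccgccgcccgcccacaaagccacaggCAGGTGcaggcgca
CLDN4, chr7:73830746-73831045, plus strand: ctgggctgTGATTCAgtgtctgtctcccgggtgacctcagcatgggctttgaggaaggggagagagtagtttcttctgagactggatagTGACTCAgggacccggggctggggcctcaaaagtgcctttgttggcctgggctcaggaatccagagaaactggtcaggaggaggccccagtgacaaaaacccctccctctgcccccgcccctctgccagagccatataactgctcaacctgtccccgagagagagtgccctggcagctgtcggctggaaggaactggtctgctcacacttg
The CLDN3 window held 1 E-box, starting at base 37 of the transcript, and the CLDN4 window 2 AP-1 matches, starting at -242 and -161. An E-box lay in 26.8% of the 71 windows found for 44 of the 63 members and in 20.6% of 35116 windows of all genes. An AP-1 match lay in 9.86% and 7.71%. Some genes have several windows, and a match is a description of letters.

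No desmosome gene was called with miR-210-3p. DSC3, the desmocollin of basal squamous cells, read -1.19 and -1.32 with NC, -2.10 and -2.42 after miR-210-3p, -1.92 and -1.97 after miR-629-3p and -1.57 and -1.0 after miR-874-3p. Both miR-210-3p arrays were the lowest. Its difference against NC was -1.01 (SE 0.21, adjusted p = 0.052 by limma), while a second DSC3 feature gave -1.29 (adjusted p = 0.0171) where every feature was tested. DSP read 5.33 and 5.37 with NC but 4.93 and 4.92 after miR-210-3p, a difference of -0.43 (adjusted p = 0.052). Both DSC3 and DSP were called lower in some alternatives, among them normexp correction, median centring and detection on all arrays. PKP1 (-0.52), PKP3 (-0.47), DSG3 (-0.38) and JUP (-0.33) were below NC on both arrays and not called, and DSG2 (0.20), DSC2 (-0.14) and PKP2 (0.09) were not called either.

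The summed squamous markers were 1476 to 1501 with miR-210-3p and 1688 to 1794 with NC. KRT5, KRT14, KRT17 and SFN were called lower, and their part in the desmosome values was not tested. The fibroblast sum was 0.81 to 1.89 with miR-210-3p and 0.42 to 0.424 with NC. COL1A1, not called, read -1.63 and 0.53 on the miR-210-3p arrays. In the same order, endothelial sums were 1.39 to 1.62 and 1.5 to 1.57, and neural sums 58.6 to 59.5 and 56.9 to 66.4. Leukocyte sums were 3.41 to 3.55 and 3.05 to 3.25. The part of these lists in the junction results was not tested. At 2-fold with an unadjusted p under 0.05, 2 of 37 members passed with miR-210-3p (CLDN3 and DSC3), against 3.14% of all genes. At the same threshold 4 passed with miR-629-3p (CDH11, CLDN1, CLDN11 and CLDN16), against 5.26%, and none with miR-874-3p, against 2.02%. The count of 3 became 0 without any one of the miR-629-3p, miR-210-3p or NC arrays, and 8 without either miR-874-3p array.

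With miR-874-3p no member was called by limma, and over all genes 0.216% were called higher and 0.207% lower. Of the 37 members, 6 had an unadjusted p under 0.05, against 16.4% of all genes, and the methods' t-test called none after adjustment. Groups did not overlap for 16 members, against 43.6%. The lowest adjusted p, 0.152, belonged to CLDN11, at -0.76 against NC. The median log2 fold change was -0.02 over the members and -0.01 over all genes. CDH1 (0.06, 95% interval -0.23 to 0.35), DSP (-0.02, interval -0.24 to 0.20) and DSG3 (-0.10, interval -0.40 to 0.20) show the differences that this spread cannot tell from 0. The difference between the 2 arrays of a group had a median over members of 0.21 for miR-874-3p, 0.14 for NC, 0.10 for miR-210-3p and 0.079 for miR-629-3p.

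**Figure D2:**
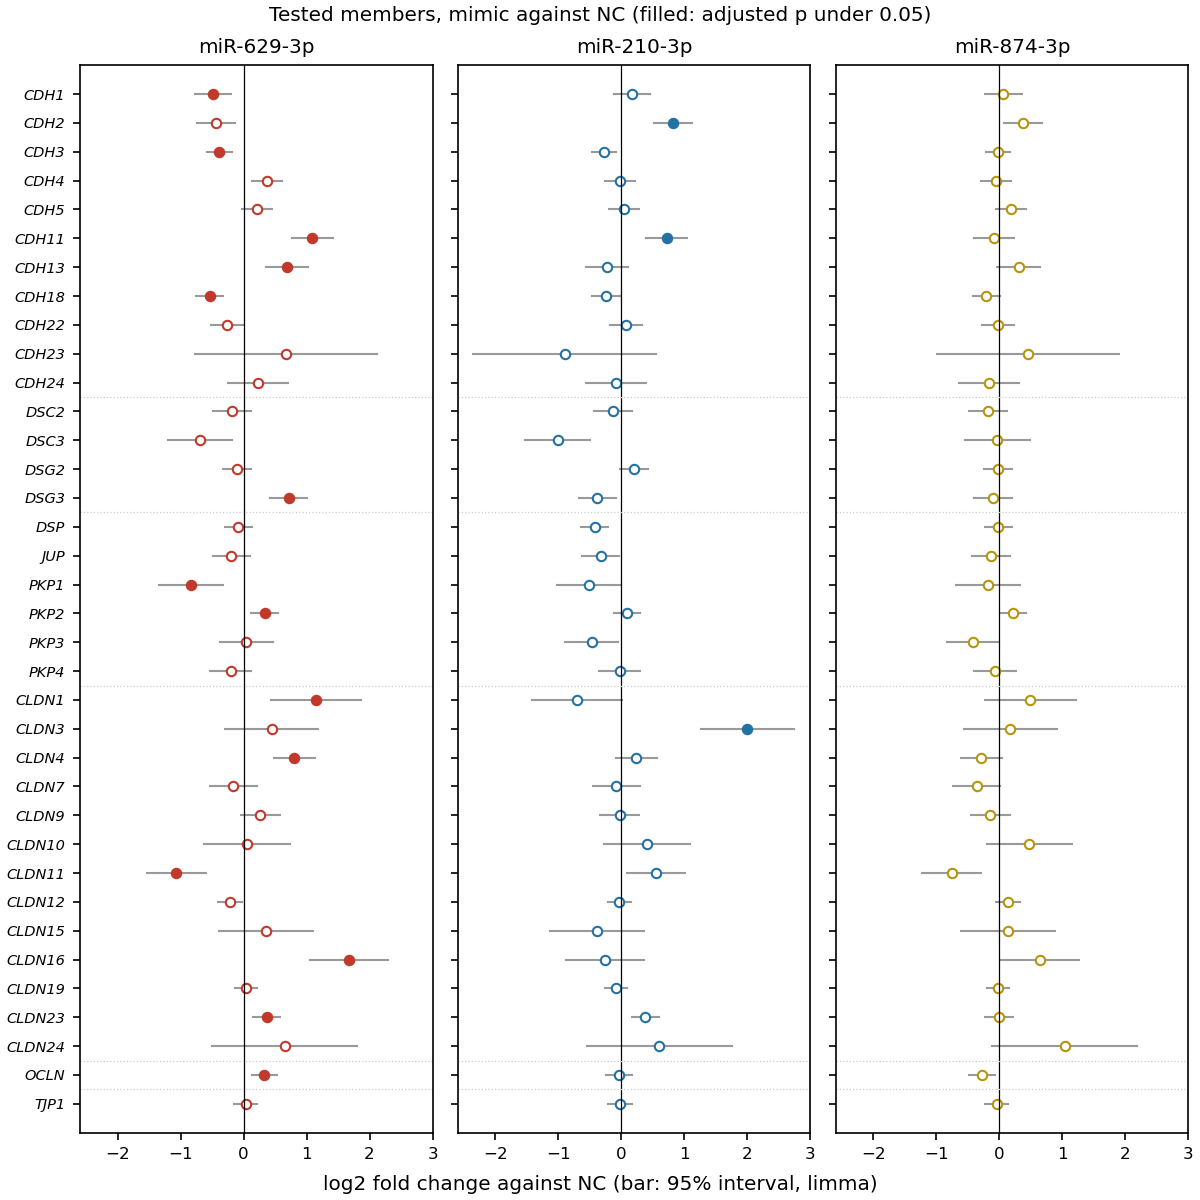
Log2 fold change against NC of 36 of the 37 tested members (rows, ordered by family between dotted lines) with each mimic; bars are 95% intervals from limma and filled points are called. The miR-629-3p panel has 14 filled points, the miR-210-3p panel 3 and the miR-874-3p panel none, and the widest intervals belong to CDH23 and CLDN24, which were not above background on every array.

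Differences between mimics were tested directly. Between miR-629-3p and miR-210-3p, 12 of 37 members were called, against 22.6% of all genes, and both groups lay in the same slide row. Higher with miR-629-3p were CLDN16 (1.93), CLDN1 (1.87), DSG3 (1.1), CDH13 (0.92), CLDN4 (0.57), CDH4 (0.40), OCLN (0.37) and DSP (0.35). Lower were CLDN11 (-1.61), CLDN3 (-1.55), CDH2 (-1.26) and CDH1 (-0.65).

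Between miR-629-3p and miR-874-3p, 11 members were called, against 16.2% of all genes. CDH11 (1.18), CLDN4 (1.09), CLDN16 (1.02), DSG3 (0.82), OCLN (0.60), CDH4 (0.42) and CLDN23 (0.38) were higher with miR-629-3p, and CDH2 (-0.81), CDH1 (-0.55), CDH3 (-0.36) and CLDN12 (-0.36) were lower. Set against miR-874-3p, miR-210-3p gave 5 calls, against 9.8%. CLDN3 (1.82), CLDN11 (1.31) and CDH11 (0.81) were higher with miR-210-3p, and DSC3 (-0.98) and DSP (-0.41) were lower. CDH4 and CLDN12, named here for these calls, were chosen after their values were seen. In all, 17 members were called in at least 1 comparison of mimics, and the share of all genes for that count was not computed. An F test over the 4 groups called 16 of 37 members, against 25.2% of all genes.

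Of the 19 members with more than 1 feature on the array, 11 had more than 1 that passed the detection filter. With miR-629-3p the fit gave the features of DSC2 opposite signs, with neither called. The brightest gave -0.18, while the other was well above background on no NC array and gives no measured fold. The features of each of the other 10 genes shared a sign in the fit, though not always a call. Some of these, such as CDH13, CLDN9 and CLDN12, also had a feature well above background on no NC array.

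**Figure D3:**
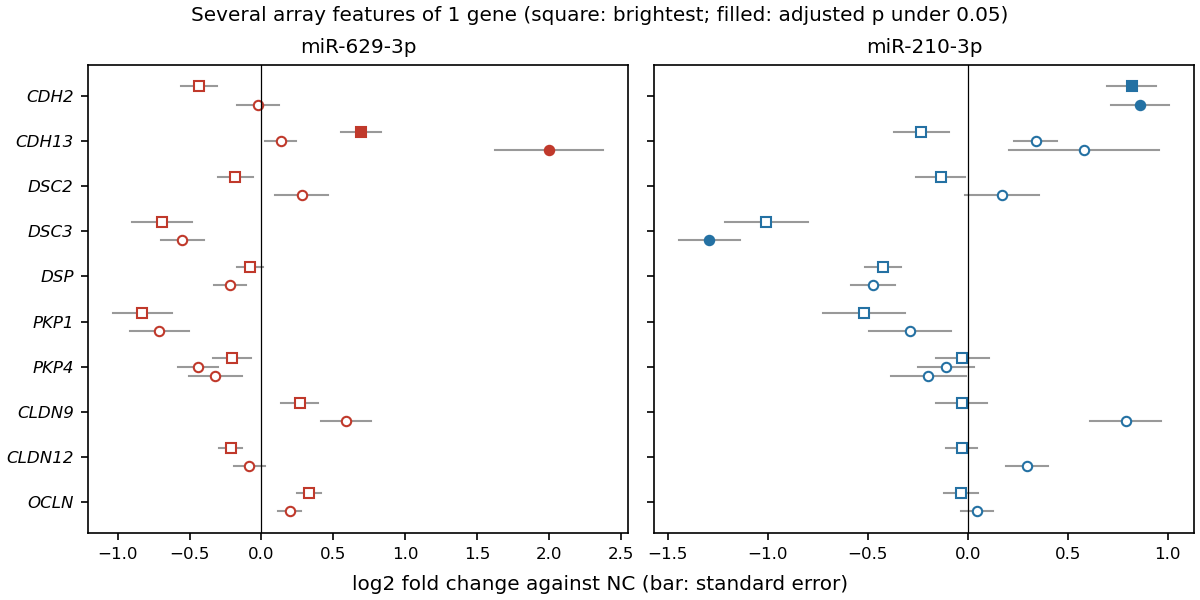
Log2 fold change against NC, with its standard error, of each array feature of 10 of the 11 members that have more than 1 feature above the detection filter. Squares are the brightest feature of a gene, which stands for it in the text, and filled symbols are called where every feature was tested. The CDH13 features bright on all arrays lie at 0.13 and 0.69 with miR-629-3p, and the rightmost CDH13 point there is fitted against arrays below background and is no measured fold, whereas both CDH2 features lie at 0.82 and 0.86 with miR-210-3p.

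As a description, the members whose levels ran most like those of CDH1 over the 8 arrays were CDH2 (Pearson r = 0.82), CLDN12 (0.70), CDH22 (0.69), CLDN11 (0.65) and CDH18 (0.64). The 8 arrays share 4 groups, so these values mostly reflect differences between group means.

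Junction partners that are not members were counted from lists, with changes given as log2 fold changes against NC. Of 19 tested adherens junction partners, miR-629-3p left 2 higher and 2 lower, and miR-210-3p 1 of each. The shares of all genes called higher and lower were 9.28% and 7.47% with miR-629-3p, and 3.85% and 2.2% with miR-210-3p. PLEKHA7, which links cadherin complexes to microtubules, rose by 1.70 (SE 0.25, adjusted p = 0.0139 by limma) with miR-629-3p, and MLLT4 (afadin) by 0.54 (adjusted p = 0.0123). PVRL2 (nectin-2) fell by 0.47 (adjusted p = 0.0175). With miR-210-3p, CTNND1 (p120-catenin, which stabilises cadherins at the membrane) fell by 0.83 (SE 0.072, adjusted p = 0.00931), and CTNNAL1 rose by 0.51. The core catenins CTNNA1 and CTNNB1 were not called with any mimic, and their changes with miR-629-3p were -0.04 and 0.02.

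Of 6 tested desmosome partners, 2 were called lower with miR-629-3p and none with the other mimics. PERP, a membrane protein needed for desmosome assembly, fell by 0.74 (SE 0.12, adjusted p = 0.018 by limma). KAZN was the other, but its feature was not well above background on any NC or miR-629-3p array, so no fold is given. Of 27 tested tight junction partners, 5 were higher and 1 lower with miR-629-3p, and 3 were higher with miR-210-3p. Shares of all genes for these counts are those given above for the adherens junction partners. PARD6A, a polarity scaffold, rose by 0.87 after miR-629-3p and 0.86 after miR-210-3p. Its paralogue PARD6B rose by 0.82 and 0.59, and MARVELD2 (tricellulin, of junctions where 3 cells meet) by 0.66 and 0.78. Both mimics lay in the slide row without NC, so mimic and row cannot be told apart for these genes. CGN (cingulin), which binds TJP scaffolds, rose by 0.75 (adjusted p = 0.0117) with miR-629-3p and was not called with the other mimics. F11R (0.13 with miR-629-3p) was not called.

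**Figure D4:**
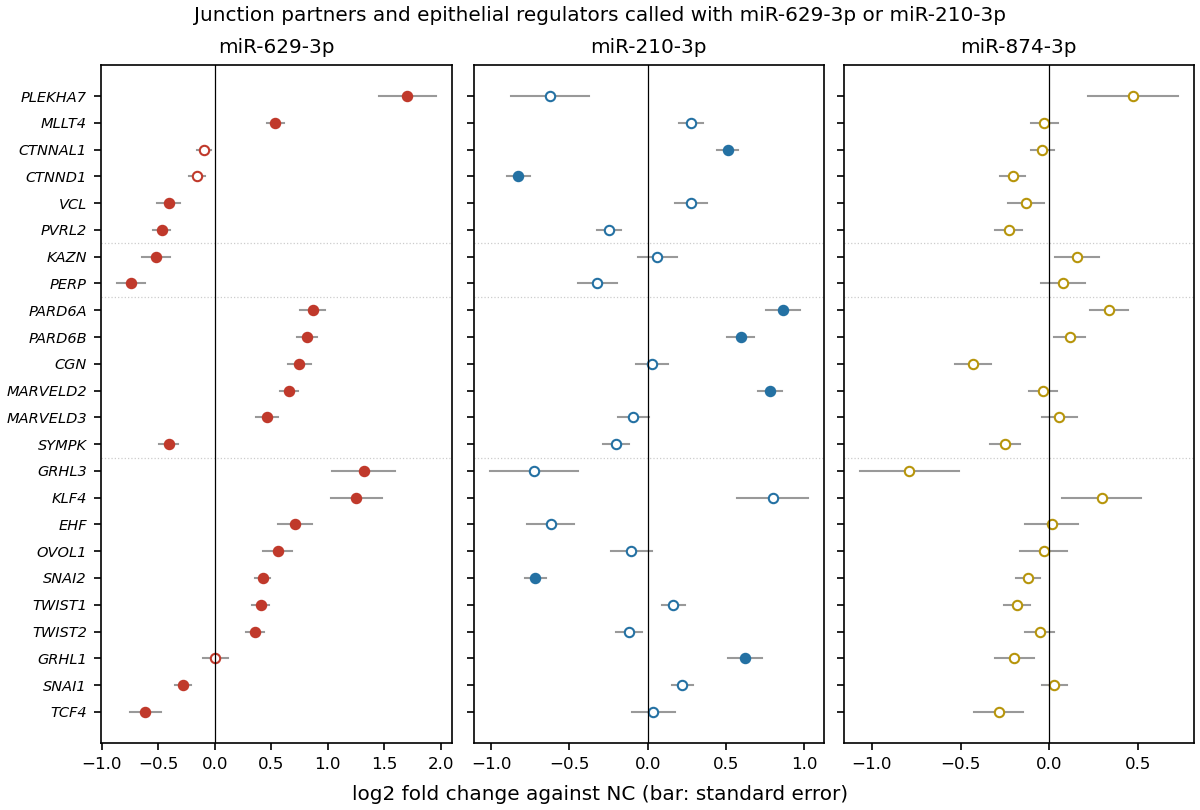
Log2 fold change against NC, with its standard error, of 24 junction partners and epithelial regulators called with miR-629-3p or miR-210-3p; dotted lines divide adherens junction, desmosome, tight junction and regulator genes, and filled points are called. With miR-629-3p the tight junction partners other than SYMPK lie right of 0, and SNAI2 lies on opposite sides of 0 with miR-629-3p and miR-210-3p.

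Of 21 tested epithelial regulators, 7 were higher and 3 lower with miR-629-3p, against 9.28% and 7.47% of all genes. The list holds factors of barrier formation as well as repressors such as SNAI2, so its counts and medians have no single direction. With miR-210-3p 1 was higher and 2 were lower, against 3.85% and 2.2%, and none was called with miR-874-3p. GRHL3 and KLF4, transcription factors of epithelial barrier formation, rose by 1.32 (SE 0.28, adjusted p = 0.0325 by limma) and 1.25 (SE 0.23, adjusted p = 0.0211) with miR-629-3p, and EHF by 0.71. OVOL1, TWIST1 and TWIST2 were also called higher, and SNAI1 and TCF4 were among the 3 called lower. SNAI2 (Slug), a repressor that binds E-boxes, rose by 0.43 with miR-629-3p (adjusted p = 0.0155) and fell by 0.72 with miR-210-3p (adjusted p = 0.0105). GRHL1 rose by 0.62 with miR-210-3p. The medians over the 21 were -0.0032 for miR-629-3p, -0.20 for miR-210-3p and -0.03 for miR-874-3p.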

How the data were processed

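Total RNA of 8 SAS cell samples was measured on Agilent SurePrint G3 Human GE v3 arrays in 1 colour. For each array the authors deposited the scanner intensity values of Agilent Feature Extraction 11.5.1.1, whose processed signal is background-subtracted and not normalized between arrays. A value table of log2 numbers that the authors deposited for these arrays served as an alternative. Set against the scanner values it differed by a constant for each array, -0.004 to 0.049, and its scale is not stated in the sources used here.

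From the intensities, log2 processed signal was averaged over the spots of a feature, without outlier spots (87 to 346 per array), and each array's 75th percentile over gene features was subtracted. No spot was saturated. Features with 8 values, and with both arrays of some group well above background, were kept, and the brightest stood for its gene name. This left 21283 of 43317 names. The share of features well above background, 41.8% to 49.8%, and the 2 arrays per group limit the precision. A filter passed in 1 group only makes a member more likely to differ, so counts are of the members that passed. The comparisons used limma 3.58.1 (lmFit, then eBayes) under R 4.3.3 with all 8 arrays (4 residual and 1.68 prior degrees of freedom), with p-values adjusted by Benjamini-Hochberg across the 21283 genes, and the fit was tested on simulated data. The comparisons with NC share the NC arrays. Slide and scan were the same for all arrays.

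Values are named for members called against NC in any comparison and for a core of 20 members whatever their values, and for partner lists for the core genes and the 3 called genes with the largest change in each list, apart from a few genes that are not reported here. The members, lists and tests were chosen with earlier results of these data known. Alternatives were normexp correction (offset 50), quantile normalization, median centring, the deposited log2 table, outlier spots kept, a floor, no filter, detection on all arrays, every probe, only the 2 groups, eBayes with trend, a replicate block, the methods' t-test (ANOVA for all groups), a threshold of 2-fold with an unadjusted p under 0.05, and each array left out. A 75th percentile over spots and a crossed pairing were added after seeing the data. All 63 symbols matched the RefSeq table, and promoter sequences were found for 44.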

Additional observations from a re-analysis of the deposited data

Results flagged for a closer look

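Differences between mimics that passed the direct test (limma, adjusted p under 0.05 over all genes) numbered 28 in 17 members, each given as a log2 difference. With miR-629-3p less miR-210-3p they were CDH1 -0.65, CDH13 0.92, CDH2 -1.26, CDH4 0.40, CLDN1 1.87, CLDN11 -1.61, CLDN16 1.93, CLDN3 -1.55, CLDN4 0.57, DSG3 1.1, DSP 0.35 and OCLN 0.37. With miR-629-3p less miR-874-3p they were CDH1 -0.55, CDH11 1.18, CDH2 -0.81, CDH3 -0.36, CDH4 0.42, CLDN12 -0.36, CLDN16 1.02, CLDN23 0.38, CLDN4 1.09, DSG3 0.82 and OCLN 0.60. With miR-210-3p less miR-874-3p they were CDH11 0.81, CLDN11 1.31, CLDN3 1.82, DSC3 -0.98 and DSP -0.41.

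Features that do not stand for their gene above were well above background on 2 arrays of at least 1 mimic and on 0 NC arrays for 4 members. For CDH13 these were the miR-629-3p arrays alone. For CLDN9 they included both the miR-629-3p and the miR-210-3p arrays, and for CLDN12 and DSC2 the arrays of all 3 mimics. NC arrays had fewer features well above background overall (24338 and 24692) than the other arrays (24861 to 28994).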

How the results depend on the processing

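All 17 calls against NC (14 for miR-629-3p and 3 for miR-210-3p) kept their direction in all 22 alternatives run, and no result was reversed. None kept its call in all 14 alternatives that dropped no single array, because the methods' t-test with adjustment called no member against NC (main counts 14, 3 and 0). Of these 14, the t-test and the fit of only the 2 groups used just the arrays of the groups compared. At 2-fold with an unadjusted p under 0.05 that t-test passed 4, 2 and 0. CDH11, CDH18, CLDN11, CLDN16 and CLDN4 with miR-629-3p lost their call under no other of these 14.

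The count with miR-629-3p (main 14) was 6 with the replicate block, 0 with the t-test and 4 at 2-fold with an unadjusted p under 0.05. Its split of 9 higher and 5 lower became 5 and 5 with median centring, 8 and 7 with normexp correction, 10 and 3 with the deposited log2 table, outlier spots kept or the percentile over spots, and 6 and 13 with no filter, where the median of all genes moved to -0.17. The count with miR-210-3p (main 3) was 6 with normexp correction, 5 with median centring, 5 with a floor, 0 with no filter, 6 with detection on all 8 arrays, 5 with every probe counted, 0 with only the 2 groups, 7 with eBayes with trend, and 0 with the replicate block or the t-test. The split was 3 higher and 3 lower with normexp correction and 3 and 2 with median centring. Members called between 2 mimics (main 17) numbered 11 with the replicate block, 4 with the t-test and 9 at 2-fold with an unadjusted p under 0.05. The F test over the groups (main 16) called 7 with the replicate block and 7 by the methods' ANOVA. With miR-874-3p the count was 0 in every setting. Apart from what construction shows (normexp adds a constant that compresses dim signals), the cause was not tested.

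Leaving out each array in turn, with the lone array assumed to vary like the other groups, gave 0 to 15 members for miR-629-3p, 0 to 8 for miR-210-3p, 0 to 0 for miR-874-3p, 3 to 17 between mimics and 0 to 17 by the F test. Without miR-629-3p array 1 or 2, both the count with miR-629-3p and the F test count were 0, and that between mimics was lowest without miR-629-3p array 1. Among members not called, 45 results gained a call and 74 moved by more than the spread between arrays, while 1940 did neither. Same-numbered arrays did not deviate together (correlations -0.106 to 0.034). With 2 arrays in each group, this cannot show whether the numbers pair the samples. As NC and miR-874-3p gave -0.106, a crossed pairing was run and called 0 members. No slide block could be run, since all arrays share 1 slide, and slide row is confounded with the groups. Dim features, such as those of CDH23, CLDN15 and CLDN24, limit what could be measured.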
